A study of Mus musculus with 2 samples.

Results

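The genes described here are the mouse mitochondrial ribosomal protein genes, 77 protein-coding genes found by their symbols, Mrpl or Mrps followed by a number and at most 1 letter, among 69691 gene rows and 21461 nuclear protein-coding genes. The rule reads the symbols and no measured value. They lie on 17 chromosomes, with 11 of them on chromosome 11. The cells were G1E-ER4, an immortalized mouse erythroid line made from cells without Gata1, to which GATA-1 activity was restored in a form that estradiol switches on. Both libraries came from cells kept for 24 hours in 10 nM 17beta-estradiol and were sequenced from 1 end after poly(A) selection. The labels number them biological replicates 1 and 2, yet give both the same biosample record. The SD between them may therefore be technical. There is 1 group and no untreated library among those analysed, so no change on induction can be given and no test between conditions was possible.

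Mitochondria keep their own ribosome, which makes the few proteins encoded by mitochondrial DNA, all of them subunits of the respiratory chain and ATP synthase. Its rRNAs come from mitochondrial DNA, but every one of its proteins is encoded in the nucleus, made in the cytosol and imported. Some of these proteins descend from proteins of bacterial ribosomes, and others were added in mitochondria and have no bacterial counterpart. Erythroid cells depend on mitochondria for the first and last steps of haem synthesis before the organelles are removed at maturity.

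The libraries held 20412826 and 18564086 expected counts, read counts that are shared out among the genes a read fits. Levels are given as TPM, in which counts are divided by transcript length and each library is scaled to the same total, so that genes can be compared. Of 6 erythroid marker genes, 6 were at 1 TPM or more in both libraries. Of 6 markers of mast cells, macrophages and lymphocytes 0 were, the highest being 0.44 TPM. Gata1 is among the erythroid 6. Since GATA-1 activity was restored in this line by design, detection of Gata1 does not speak for the cell type.

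All 77 genes reached 1 TPM in each library, called detected here, as did 41.2% of all nuclear protein-coding genes. Both libraries had 10 TPM or more for 71 members, against a background of 27.7% of all genes and 67.3% of detected genes. At 100 TPM or more stood 12 members, where the shares were 5.47% and 13.3%. Counting all transcripts of each gene, the family was thus present throughout, with most members between these levels. In bulk RNA, the number of cells that express a gene and the RNA per cell cannot be told apart. Its median was 52.5 TPM, with 55.9 TPM in replicate 1 and 49.8 TPM in replicate 2 (SD 4.31, n = 2). The median of detected protein-coding genes was 20.7 TPM. The middle 50% of the members lay between 29.6 and 78.2 TPM, and the extremes, Mrpl1 and Mrps21, differed 67.7-fold. Together the 77 genes held 0.517% of all TPM in replicate 1 and 0.489% in replicate 2.

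Cytosolic ribosomal proteins, which build the ribosomes that translate nuclear mRNAs, were far more abundant. Their median over 82 genes was 1115 TPM, of which 78 were detected. The log2 ratio of the medians, mitochondrial to cytosolic, was -4.39 ± 0.03 (SD, n = 2), so that the mitochondrial median was 0.0476 times the cytosolic one. Nuclear-encoded subunits of oxidative phosphorylation, which join the products of the mitochondrial ribosome in the inner membrane, had a median of 175 TPM over 83 genes. The log2 ratio to them was -1.71 ± 0.01, or 3.26-fold lower. Both ratios are many times the spread between the libraries. The mitochondrial ribosomal proteins were also less spread among themselves, with an SD of log2 TPM of 1.26 over members, against 1.81 for detected cytosolic ribosomal proteins, 1.38 for detected oxidative phosphorylation subunits and 2.11 for all detected genes.

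**Figure D1:**
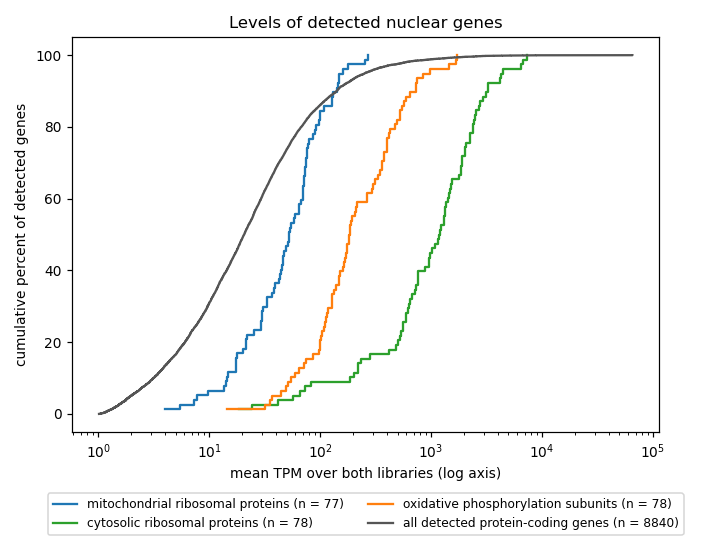
Cumulative percent of detected genes (vertical axis) at or below a mean TPM over both libraries (horizontal axis, logarithmic) for 4 sets of nuclear protein-coding genes. The curve of the 77 mitochondrial ribosomal protein genes lies to the right of all detected genes over most of its length, with a median of 52.5 TPM, and left of oxidative phosphorylation subunits (175 TPM over 83 genes, undetected ones included) and of cytosolic ribosomal proteins (1115 TPM over 82).

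The large subunit, which joins amino acids and holds the exit tunnel, was represented by 50 genes with a median of 66.2 TPM. The small subunit, which binds mRNA and reads its codons, was represented by 26 genes with a median of 48.4 TPM. Summed over genes, the large subunit held 3423 TPM in replicate 1 and 3273 in replicate 2, and the small subunit 1649 and 1531. The log2 ratio of the sums was 1.07 ± 0.03 (SD, n = 2), or 2.11-fold, over 50 genes against 26. The mean per gene was 67.0 TPM for the large and 61.1 TPM for the small subunit, and the ratio of medians 0.40 ± 0.04 on the log2 scale. Levels were thus close per gene beside a range of 64.6-fold within the large and 36.7-fold within the small subunit.

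By the standard naming of ribosomal proteins, which goes by place on the ribosome, the 29 large-subunit proteins with a bacterial homologue had a median of 68.1 TPM and ranged from 3.97 to 179.6 TPM. The 21 large-subunit proteins classed as mitochondria-specific, Mrps18a among them, had a median of 53.7 TPM and ranged from 7.85 to 257 TPM. In the small subunit, 16 genes with a bacterial homologue had a median of 53.3 TPM (7.32 to 269), and 10 mitochondria-specific genes, Mrps18b among them, a median of 36.1 TPM (13.8 to 70.3). The last group was the narrowest but also the smallest. Of its 10 genes 0 reached 100 TPM, against 15.6% of all members and 13.3% of detected genes. All 10 reached 10 TPM, against 92.2% and 67.3%. Counts from so few genes do not set the group apart from the other members. Over both subunits the log2 ratio of medians, bacterial homologues to mitochondria-specific proteins, was 0.24 ± 0.13, with 0.33 in replicate 1 and 0.14 in replicate 2, a small difference with a large spread.

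**Figure D2:**
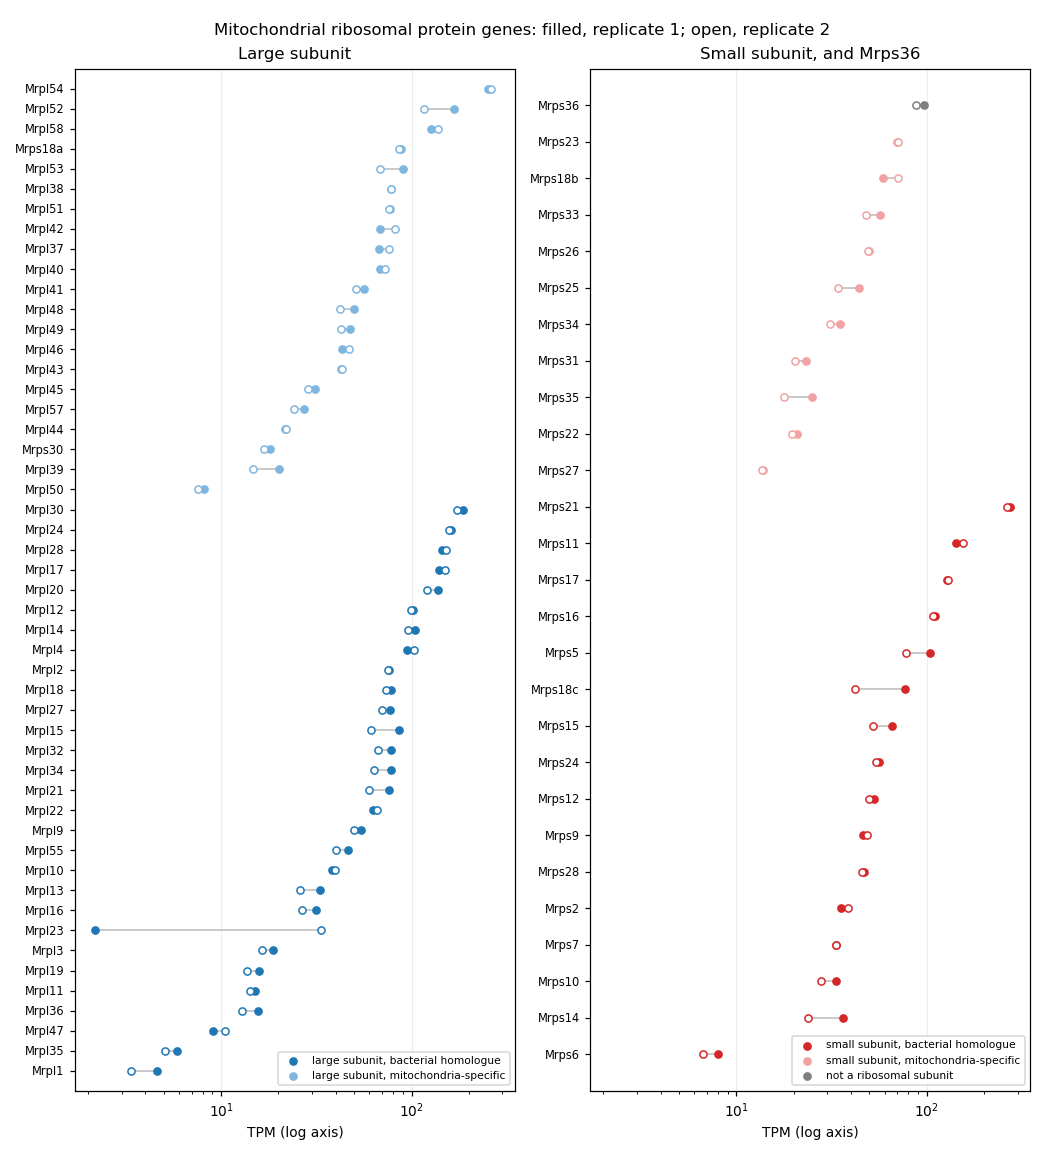
TPM (horizontal axis, logarithmic) of each of the 77 genes in replicate 1 (filled) and replicate 2 (open), joined by a line, by subunit and by class. For most genes the points nearly coincide, Mrps21 and Mrpl54 stand highest, Mrpl1 is lowest by the mean, and Mrpl23 has by far the longest line, from 2.18 to 33.6 TPM.

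The highest member was Mrps21, a small-subunit protein with a bacterial homologue (chromosome 3, 95862634 to 95871519, minus strand, GRCm38), at 274 TPM in replicate 1 and 264 TPM in replicate 2. Mrpl54, a mitochondria-specific large-subunit protein on chromosome 10, followed at 251.1 and 262 TPM, so that in replicate 2 the first and second member were nearly level. Mrpl30, of bacterial descent, stood at 187 and 173 TPM. The next, Mrpl24, which in bacteria starts the assembly of the large subunit, was at 162 and 158 TPM and did not overlap with Mrpl30. Mrps11, of the small-subunit platform, was at 143 and 155 TPM, and Mrpl28 at 145 and 151 TPM. Mrpl17, near the exit tunnel, was at 140 and 151 TPM. The ranges of these 3 overlapped. Mrpl17 was below Mrps11 and Mrpl28 in both libraries, while the order of Mrps11 and Mrpl28 differed between the libraries. Mrpl52, specific to mitochondria, was at 168 and 116 TPM, Mrpl58 at 127 and 137 TPM, and Mrpl20 at 138 and 121 TPM. Mrpl58 is a peptidyl-tRNA hydrolase that frees stalled ribosomes and is also built into the large subunit. On transcripts annotated as coding alone, the mean was 62.2 TPM for Mrpl58, 82.9 TPM for Mrpl17 and 10.7 TPM for Mrps11.

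The lowest member by the mean of both libraries was Mrpl1, a protein of the mobile stalk where spent tRNA leaves the ribosome, at 4.59 TPM in replicate 1 and 3.35 TPM in replicate 2, from 169 and 125 counts. Mrpl35 was at 5.86 and 5.06 TPM, above Mrpl1 in both libraries. Mrps6, a platform protein, was at 7.97 and 6.66 TPM and Mrpl50, specific to mitochondria, at 8.15 and 7.54 TPM, which overlapped. Within each library Mrpl50 was above Mrps6, and both were above Mrpl35. Mrpl47, the homologue of a protein at the exit tunnel, was at 9.09 and 10.4 TPM, but at a mean of only 2.37 TPM on transcripts annotated as coding, below Mrpl1 at 3.98 TPM. Mrps27, a mitochondria-specific protein with helical repeats, was at 13.9 and 13.7 TPM. Mrpl36 was at 15.7 and 12.9 TPM and Mrpl11, at the base of the factor-binding stalk, at 15.1 and 14.2 TPM, so that the range of Mrpl36 spanned the other two. Mrpl12, the protein of that stalk which recruits translation factors, was at 102 and 99.7 TPM although bacterial ribosomes carry several copies of its homologue.

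The order partly followed transcript length. Across the 77 genes the Spearman correlation of length with TPM was -0.61, and with CPM, counts scaled to the same total but not divided by length, -0.11. Genes are not independent replicates, and the length enters TPM by division. The median length was 932 bases, from 412 for Mrpl52 to 3715 for Mrpl35, against 2156 for detected protein-coding genes. The part of length in the order was not tested.

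Several members sit elsewhere than their symbols say. Mrps30 and Mrps18a are large-subunit proteins. Mrps30 was at 17.95 and 16.8 TPM, low in the set. Mrps18a, Mrps18b and Mrps18c are all related to 1 bacterial protein but sit at different places on the ribosome, and only Mrps18c was counted as a bacterial homologue. Mrps18a stood at 88.0 and 86.2 TPM, Mrps18b at 59.0 and 70.4 TPM, and Mrps18c at 76.97 and 42.2 TPM. Mrps18a was above Mrps18b in both libraries, while the range of Mrps18c overlapped with that of Mrps18b. Mrps36, now assigned to the 2-oxoglutarate dehydrogenase complex of the citric acid cycle, was at 96.3 and 88.2 TPM. It is counted among the 77 genes but in neither subunit.

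Mrpl23 (chromosome 7, 142532686 to 142540747, plus strand, GRCm38), a large-subunit protein at the exit tunnel, was the member that differed most between the libraries. Its level was 2.18 TPM in replicate 1 and 33.6 TPM in replicate 2, from 23.2 and 250.04 expected counts. After TMM scaling, which puts both libraries on a common scale, it was 11.98-fold higher in replicate 2 (exact 95% interval 7.80 to 19.2, counting error only). That interval does not cover the error of sharing reads out among genes. By posterior mean TPM, another estimate in the authors' data, the libraries were much closer, at 19.86 in replicate 1 and 37.85 in replicate 2. A processed pseudogene, Mrpl23-ps1, an intronless copy on chromosome 2 (74591330 to 74591909, minus strand), held 1690 and 1352 counts, or 193 and 170 TPM. Gene and pseudogene together held 1713 and 1602 counts, or 195 and 203 TPM, a difference of only 0.04 on the log2 scale. The gene's share of that sum was 1.36% in replicate 1 and 15.6% in replicate 2.

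The 441 coding bases of Mrpl23 and the pseudogene are identical, with 0 differences. The first 120 coding bases are shown because any read of them fits both places equally. The capitals mark 1 read length of 36 bases, and the same letters are bases 18 to 137 of Mrpl23-ps1.
Mrpl23: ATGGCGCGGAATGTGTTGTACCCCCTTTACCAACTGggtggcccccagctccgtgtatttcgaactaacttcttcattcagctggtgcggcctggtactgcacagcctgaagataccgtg
All 406 words of 36 bases in the coding sequence occur in the pseudogene. Over the whole coding transcript, of 692 bases, 505 of 657 words (76.9%) occur there, and of the 152 that do not, 150 lie at the 5′ end. No count was assigned to this transcript in either library. In replicate 2, 226 of the gene's counts were assigned to a processed transcript of 531 bases, which had 0 in replicate 1. Reads from the gene and the pseudogene cannot be told apart over the coding sequence, and the gene's own level was not resolved here.

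Other pseudogenes that carry a member's symbol were lower than Mrpl23-ps1. Mrps36-ps2 was at 30.2 and 14.1 TPM, Mrpl48-ps at 7.98 and 7.11 TPM and Mrps36-ps1 at 1.84 and 4.54 TPM. Mrps36-ps3 was listed at 0 in both libraries. Among processed pseudogenes with other symbols that share sequence with a member, Gm14017, for Mrpl51, was at 47.6 and 49.1 TPM and Gm5776, for Mrps33, at 35.7 and 22.5 TPM.

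Between the libraries, 3 of 77 members differed over 1.5-fold, against 2.39% of 8587 nuclear protein-coding genes with at least 50 scaled counts on average. Over 2-fold, 1 member differed, Mrpl23, with replicate 2 higher (background 0.0932%), and 0 with replicate 1 higher (background 0.233%). Among the 3 members over 1.5-fold, in 1, Mrpl23, replicate 2 was higher (background 0.303%), and in 2 replicate 1 was (background 2.08%). Mrpl39, a large-subunit protein related to tRNA synthetases, had 404 and 230 counts and was 1.59-fold higher in replicate 1 (1.35 to 1.88). Mrps18c had 545 and 318 counts and was 1.56-fold higher there (1.35 to 1.79). Mrps14, of the small-subunit head, was 1.49-fold higher in replicate 1, Mrpl52 1.44-fold and Mrpl13 1.39-fold. Apart from Mrpl23, the members higher in replicate 2 differed little. Mrpl42 was 1.20-fold higher there, Mrpl17 1.11-fold, and Mrpl46 and Mrpl37 1.10-fold each.

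Small differences leaned one way. At any size, 57 of 77 members were higher in replicate 1, against 51.3% of all 8587 genes. The median log2 ratio of replicate 2 to replicate 1 was -0.09 for the members and -0.01 for all genes. The median size of the difference regardless of sign was 0.13 for the members and 0.14 for all genes. The lean was present in both subunits, with medians of -0.10 for the large and -0.08 for the small. Median TPM was lower in replicate 2 in like gene sets too. It was 1189 and 1032 TPM for cytosolic ribosomal proteins and 181.5 and 163.0 TPM for oxidative phosphorylation subunits, beside 55.9 and 49.8 TPM for the members. The lean was thus not shown to be particular to the members.

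**Figure D3:**
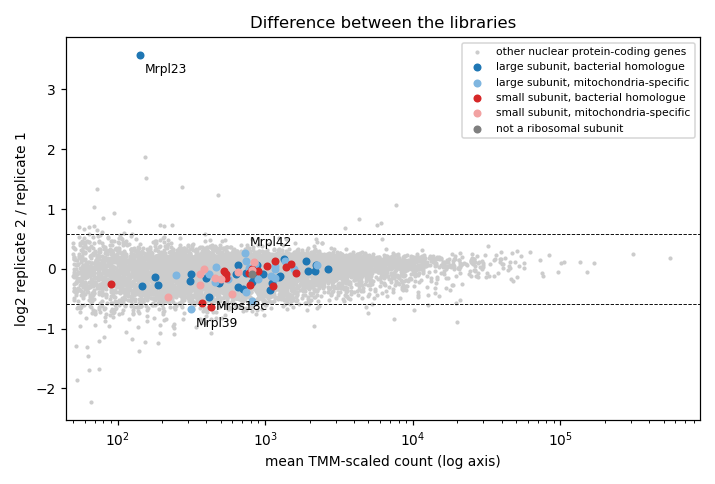
Log2 ratio of replicate 2 to replicate 1 (vertical axis) against the mean TMM-scaled count (horizontal axis, logarithmic) for 77 members (colours by role) and other nuclear protein-coding genes with at least 50 scaled counts (grey). Dashed lines mark 1.5-fold. Mrpl23 lies far above the upper line, Mrpl39 and Mrps18c lie below the lower one, and most other members sit slightly below 0.

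A gene's level need not be that of an mRNA that can be translated. The 77 genes had 275 transcripts in the quantification, of which 148 are annotated as protein-coding, 66 as retaining an intron, 46 as processed transcripts without a reading frame and 14 as targets of nonsense-mediated decay, which removes mRNAs with an early stop. Coding transcripts held 77.8% of the members' TPM in replicate 1 and 76.8% in replicate 2, against 76.9% and 76.1% over all detected genes. Transcripts with a retained intron held 11.3% in each library, processed transcripts 6.09% ± 0.806 (SD, n = 2) and decay targets 5.29% ± 0.132. Coding transcripts held under 90% of TPM in both libraries for 30 of 77 members, near the background of 35.5%. They held under 50% for 15 members, where the background was 13%. Only 1 transcript was quantified for 19 members. Transcript classes are those of GENCODE M21, applied to transcripts quantified on M4, and a class may differ between the releases.

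The lowest coding shares of TPM were near 0%. Mrpl32, a large-subunit protein processed by a mitochondrial protease before it joins the ribosome, had 0% in both libraries at 78.2 and 66.7 TPM. Only 1 of its 4 annotated transcripts was quantified, and that one is a decay target. Mrpl23 also had 0%, as described above. Mrps26, mitochondria-specific, had 1.36% and 1.61%, since Mrps26-201, which retains an intron, held 98.6% and 98.4%. Mrpl51 had 2.96% and 2.52%, and Mrps5, at the mRNA entry, 6.61% and 4.91%. Mrpl3, of the large-subunit core, had 6.56% and 6.24%. As shares of counts, which are not divided by length, these values were higher. They were 5.44% and 6.33% for Mrps26 and 11.4% and 9.99% for Mrpl51. For Mrps5 they were 22.8% and 25.6%, and for Mrpl3 17.8% and 13.7%. By TPM, both libraries ordered these genes nearly alike.

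Mrps11, one of the 10 highest members, had a coding share of 7.53% and 6.92%, or 10.7 TPM in each library. Its transcript Mrps11-206, which retains an intron, held 49.8% and 56.5%, and the decay target Mrps11-205 held 40.04% and 35.2%. The high level of Mrps11 was thus mostly one of transcripts annotated as not coding. Mrps14 had 14.4% and 17.8%, with 85.6% and 82.2% on the decay target Mrps14-201. Mrps25 had 8.47% and 7.77% of TPM on coding transcripts but 50.4% and 48.0% of counts, its coding transcript being 6073 bases long and the others 565 and 636. Each share is an estimate from reads of 36 bases, and its error was not used here.

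**Figure D4:**
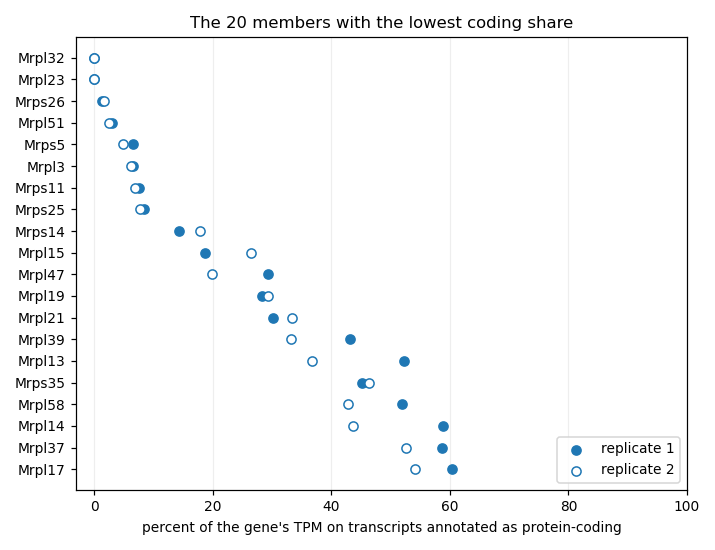
Percent of a gene's TPM on transcripts annotated as protein-coding (horizontal axis) for the 20 members with the lowest share, replicate 1 filled and replicate 2 open. Mrpl32 and Mrpl23 are at 0% and the following 6, down to Mrps25, stay under 10% in both libraries.

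Some members share sequence with other genes, for which no share over all genes was computed. A median of 94.6% of a member's 36-base words occurred in no other gene, 20 members were unique throughout and 27 were unique for under 90%. The lowest shares were 16.2% for Mrpl53 beside Gm42688, 26.8% for Mrps34 beside Mapk8ip3 and 31.3% for Mrps25 beside Nr2c2, genes that overlap them. Exons of 32 members overlapped with another gene, 28 of them on the opposite strand and 7 on the same strand. Whether counting used strand is not given in the sources used here, so for these members reads of the partner cannot be told apart. Mrps34 was at 35.1 and 31.0 TPM and its partner Mapk8ip3 at 37.7 and 44.3 TPM.

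A further feature was the arrangement in head-to-head pairs, in which neighbouring genes start close together and run apart. A protein-coding gene on the other strand started within 1000 bases of the start of 33 of 77 members, or 42.9%, against 10.8% of all nuclear protein-coding genes and 20.7% of detected ones. The partners had varied functions, and the pairs named here, picked for a mitochondrial partner after all pairs were seen, are examples only. Mrps12, of the decoding centre, faces Sars2, the mitochondrial seryl-tRNA synthetase, at 172 bases. Mrps12 was at 53.1 and 49.8 TPM and Sars2 at 25.1 and 27.3 TPM. Mrpl36 faces Ndufs6 of respiratory complex I, at 86.8 and 85.3 TPM, and Mrpl47 faces Ndufb5 of the same complex, at 75.7 and 66.5 TPM. Mrpl43 faces Twnk, the mitochondrial DNA helicase, at 7.82 and 7.47 TPM. Mrpl46 and Mrps11, a large and a small subunit gene, face each other, at 42.9 and 47.1 TPM and at 143 and 155 TPM. Of the pairs named, all but Mrps12 and Sars2 overlap at their starts, as do others of the 33. Reads in such an overlap may belong to either gene. As estimated, members and partners were not alike in level. Over the 33 pairs, Mrpl46 and Mrps11 counted from either side, the Spearman correlation was 0.05. The member was the higher in 22 pairs, and 29 partners were detected. The median was 52.2 TPM for 33 members with such a partner and 53.8 TPM for 44 without.

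Promoters, from 250 bases before to 50 after the start (RefSeq, GRCm38.p6), were matched by symbol for 68 members, 3 of them with several starts, giving 74 promoters. These are 3 that show the elements searched for, in the gene's own direction. Capitals mark ETS or YY1 motifs on either strand. Mrps21, the highest member, has an ETS motif (chr3:95871465-95871764, minus strand). Mrps12 has a YY1 and an ETS motif and faces Sars2 (chr7:28741772-28742071, minus strand). Mrps11 has a YY1 motif (chr7:78782881-78783180, plus strand).
Mrps21: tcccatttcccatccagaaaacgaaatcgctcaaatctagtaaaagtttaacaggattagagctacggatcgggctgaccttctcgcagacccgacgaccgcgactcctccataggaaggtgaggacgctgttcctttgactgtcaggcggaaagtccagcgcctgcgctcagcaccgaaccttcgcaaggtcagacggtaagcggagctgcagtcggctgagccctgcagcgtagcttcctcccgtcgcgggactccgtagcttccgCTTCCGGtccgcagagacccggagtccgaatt
Mrps12: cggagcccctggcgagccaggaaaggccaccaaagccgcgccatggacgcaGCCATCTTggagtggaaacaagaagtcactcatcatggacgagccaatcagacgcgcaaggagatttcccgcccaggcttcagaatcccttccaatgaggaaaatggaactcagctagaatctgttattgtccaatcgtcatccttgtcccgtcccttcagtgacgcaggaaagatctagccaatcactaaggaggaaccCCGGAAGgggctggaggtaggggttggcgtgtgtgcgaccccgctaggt
Mrps11: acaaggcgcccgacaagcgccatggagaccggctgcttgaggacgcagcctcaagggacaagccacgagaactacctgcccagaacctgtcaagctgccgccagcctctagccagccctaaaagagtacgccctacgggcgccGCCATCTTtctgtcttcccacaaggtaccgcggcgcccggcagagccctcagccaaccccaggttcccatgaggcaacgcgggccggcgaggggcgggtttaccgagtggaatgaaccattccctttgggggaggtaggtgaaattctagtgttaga
The ETS motif of Mrps21 begins 18 bases after the start, and that of Mrps12 at base 1. The YY1 motif of Mrps12 begins 199 bases before the start and that of Mrps11 107 bases before it. By position, both YY1 matches lie past the start of the facing gene, within Sars2 and within Mrpl46. Which gene of each pair they belong to was not tested. The promoters of Mrps11 and Mrpl46 share 141 bases (chr7:78783040-78783180), and the YY1 motif lies outside them.

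ETS factors such as GABPA, together with NRF1 and YY1, are textbook regulators of nuclear genes for mitochondria. The ETS motif, CCGGAAG, was in 33.8% of the 74 member promoters (exact 95% interval 23.2 to 45.7%), 21.8% of the promoters of detected genes and 8.86% of all 32851 promoters. The YY1 motif, AAGATGGC, was in 16.2% (8.67 to 26.6%), against 5.54% and 2.75%. The NRF1 motif, searched as the full palindrome without mismatch, was in only 3 promoters, 4.05% (0.844 to 11.4%), against 2.55% and 0.971%. At least 1 of these motifs was in 36 of 74 member promoters, 48.6%, against 28.0% for detected genes. For cytosolic ribosomal proteins the share with any of them was 47.3%, with 35.1% for ETS, 9.46% for YY1 and 2.70% for NRF1, and the differences from the members were not tested. For oxidative phosphorylation subunits the share with any was 38.0%.

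The other motifs lay on either side of the background. The GC box, GGGCGG, was in 52.7% of member promoters (40.7 to 64.4%) and in 65.7% of those of detected genes. CCAAT was in 39.2% and 39.4%, the E-box CACGTG in 9.46% and 10.7%, and TATAAA in 6.76% and 6.09%. AGATAA, the core bound by GATA factors, was in 10 member promoters, 13.5% (6.68 to 23.5%), against 6.17% for detected genes and 11.2% for all. Both strands were searched for each motif. Matches of ETS and GC box overlapped in 2 promoters and those of CCAAT and AGATAA in 1. The median GC content was 58.8% for the members and 61.3% for detected genes. Median levels of genes with and without a match were 68.1 and 44.99 TPM for ETS, 53.3 and 53.1 TPM for YY1, and 52.2 and 53.7 TPM for NRF1. They were 56.9 and 45.6 TPM for the GC box, 71.7 and 52.2 TPM for the E-box, and 56.2 and 52.3 TPM for CCAAT. For AGATAA they were 34.6 and 54.4 TPM and for TATAAA 46.2 and 53.7 TPM, from 10 and 5 genes with a match. The E-box median too rests on only 5 genes with a match, and that of NRF1 on 3. A match is a run of letters and does not show binding, and some promoters share bases.

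**Figure D5:**
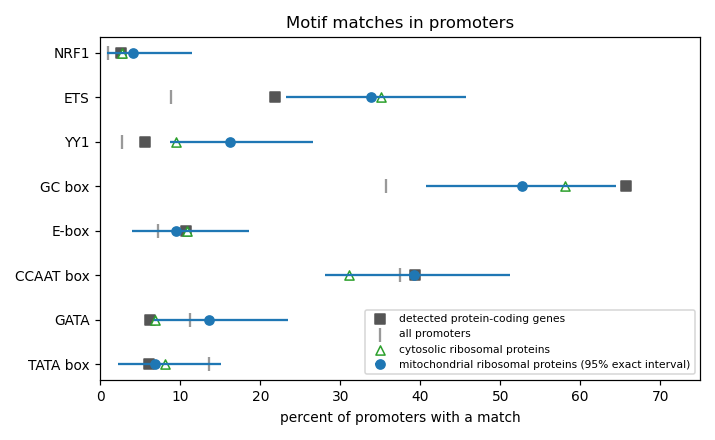
Percent of promoters with a match to each of 8 motifs (horizontal axis) for the 74 promoters of mitochondrial ribosomal protein genes (blue points, bars are exact 95% intervals), detected protein-coding genes (squares), all promoters (ticks) and cytosolic ribosomal proteins (triangles). For ETS and YY1 the blue point is right of the square, for the GC box left of it, and for CCAAT they coincide.

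Ribosomal proteins with other symbols were at like levels, all 5 detected with a median of 61.0 TPM. Aurkaip1 of the small subunit was at 177 and 189 TPM, and Dap3, a small-subunit GTP-binding protein, at 88.2 and 91.8 TPM. Chchd1 was at 67.4 and 54.7 TPM and Gadd45gip1, of the large subunit, at 30.2 and 34.0 TPM. Ptcd3, at the mRNA entry, was the lowest at 8.53 and 6.60 TPM.

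The machinery around the ribosome was lower than the ribosomal proteins in median TPM. Its transcripts were longer, against a median of 932 bases for the members. The medians were 1444 bases for assembly factors, 1776 for translation factors and 2028 for mitochondrial transcription and DNA maintenance. The part of length in this comparison was not tested. Of 26 assembly factors, 25 were detected, and their median was 13.4 TPM, led by Mpv17l2 at 58.0 and 60.8 TPM, Trub2 at 35.7 and 43.3 TPM and Ngrn at 42.3 and 35.4 TPM. The exception was Gtpbp10, a GTPase of large-subunit assembly, with 0 counts in replicate 1 and 1 in replicate 2. Of 14 translation factors all were detected, with a median of 17.0 TPM. Tufm, the elongation factor that brings tRNA to the ribosome, was at 87.4 and 91.0 TPM, Slirp at 54.7 and 49.6 TPM and Lrpprc, which with Slirp stabilises mitochondrial mRNA, at 34.8 and 32.1 TPM. Of 15 genes for mitochondrial transcription and DNA maintenance, 14 were detected, with a median of 12.5 TPM. Polg, the DNA polymerase, was the highest at 117 and 130 TPM, followed by Hsd17b10 at 56.6 and 61.7 TPM and Grsf1 at 45.04 and 35.2 TPM. Polg2, its accessory subunit, was the lowest at 0.82 and 1.21 TPM.

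The rRNAs that these proteins bind differed between the libraries more than any member but Mrpl23. The small-subunit rRNA mt-Rnr1 was at 240 TPM in replicate 1 and 108 TPM in replicate 2, and the large-subunit rRNA mt-Rnr2 at 609 and 247 TPM. The log2 ratio of TMM-scaled counts, replicate 2 to replicate 1, was -1.15 for mt-Rnr1 and -1.30 for mt-Rnr2, beside a median of -0.09 for the members. Since the libraries were selected for poly(A) tails, rRNA levels in them are no measure of the ribosome.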

How the data were processed

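Polyadenylated RNA of 2 libraries of 1 group was analysed. Per the deposited file manifests, reads were mapped to mm10 and quantified with GENCODE M4, 1 library per file; the sources used here give no aligner, quantifier or strand setting. The authors' tables hold, per the file headers, expected counts, estimates that need not be whole, beside TPM, FPKM, posterior mean TPM and, for transcripts, the percent of a gene's TPM. Read length, 36, follows from length minus effective length. Gene names, biotypes and positions were taken from GENCODE M21, on the same assembly by identifier; 27229 of 69691 rows had no match, and the others held 99.8% of counts.

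Expected counts were rounded and TMM-scaled (edgeR 4.0.16, R 4.3.3), tested on simulated data; DESeq2 1.42.0 size factors were an alternative. Intervals are exact Clopper-Pearson at 95% and cover counting error only; reads carry no molecular identifiers. Sequences were searched with Python 3.11.15. Values with ± are mean and SD over n = 2.

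Members, roles, lists and motifs were chosen with earlier results of these data known. Genes named are the 10 highest and 8 lowest members, the 5 most different between libraries in each direction, up to 8 with the lowest coding share and at least 50 counts, members whose name and place differ, other mitochondrial ribosomal proteins, and the 3 highest and any under 1 TPM of the other lists; genes named as overlapping, neighbouring, pseudogene or rRNA, Mrpl12, Mrps12 and other examples were added after their values were seen. Of 78 symbols in the role list 1, Mrpl33, had no row and was not analysed here. Alternatives were other units, scalings, thresholds, windows, gene sets and leaving out each library.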

Additional observations from a re-analysis of the deposited data

How the results depend on the processing

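With 1 group of 2 libraries no p-value could be computed, and a value that kept its direction here has not been tested. No paired analysis was possible because there is only 1 group. All 77 members stayed detected under each alternative run but a minimum of 5 TPM, which 75 passed, and no ratio changed sign. Detection on coding transcripts alone was not among these alternatives. On those transcripts Mrpl32 and Mrpl23 had 0 TPM in both libraries, and Mrps26 had 0.68 and 0.79 TPM. Motif shares under other settings were computed for the members alone, with no background. The median level of 52.5 TPM became 41.3 in FPKM, 65.3 TPM when rescaled over nuclear protein-coding genes, 42.9 TPM on coding transcripts and 39.8 as CPM, and ranged from 49.8 to 55.9 TPM with 1 library left out. Over members without an exon overlap with another gene, a choice made after seeing the data, it was 64.3 TPM. The large to small subunit log2 ratio, 1.07, was 1.28 for CPM, 1.16 on coding transcripts, 0.40 for medians, 0.86 by symbol alone, 1.14 without the 3 highest members and, added after seeing the data, 1.15 with Mrpl23 summed with its pseudogene. The log2 ratio to cytosolic ribosomal proteins, -4.39, was -3.70 for CPM, -4.57 on coding transcripts, -4.59 for sums and -4.47 for detected genes. The log2 ratio to oxidative phosphorylation, -1.71, was -1.46, -1.82, -2.29 and -1.74 in that order, and -1.69 both for posterior mean TPM and for log2(TPM + 1). Over 2-fold, 1 member in place of 3 differed between libraries, and under 50% coding there were 15 in place of 30. On the gene's strand alone, the ETS share was 18.9%, the GC box 28.4% and CCAAT 14.9%. From 100 bases before the start, the GC box was in 39.2%, the E-box in 2.70%, AGATAA in 2.70% and TATAAA in 1.35%. For single genes, 101 values stayed and 21 moved. A level was held to move if it changed by more than the spread between libraries, and a replicate ratio if it crossed 1.5-fold. Leaving out 1 library cannot move a level by this rule, so those values say nothing of stability. On coding transcripts, this comparison covered only the highest and lowest members and those whose name and place differ. Among these, the levels that changed by over 1.5-fold were Mrps11 at 10.7, Mrpl58 at 62.2, Mrpl17 at 82.9 and Mrpl47 at 2.37 TPM. Some members outside this set also changed by over 1.5-fold. Mrpl51 went from 76.8 and 75.8 TPM in the libraries to 2.27 and 1.91 TPM. Mrps5 went from 104 and 77.7 TPM to 6.89 and 3.82 TPM. The causes were not tested.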
